A study of Mus musculus with 8 samples.

Results

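The collagen and matrix genes described here were the 56 genes of a mouse RNA-seq table whose symbol names a collagen chain (43 genes) or is one of 13 other matrix and mesenchymal genes, namely Dcn, Lum, Postn, Fn1, Sparc, Lox, Fbn1, Thbs1, Bgn, Mmp2, Pdgfrb, Thy1 and Prrx1. They were taken by symbol from 22987 genes that the table lists at 1 locus. The symbols were chosen with earlier results of these data known. Each of the 56 was found at 1 locus in every library. Polyadenylated RNA was sequenced in 4 libraries of embryonic stem cells (mESC), the naive state, and 4 of epiblast stem cells (mEpiSC), the primed state. Libraries mESC 1 and mESC 2 came from the line ESF122, and mESC 3 and mESC 4 from ESF175/1, both grown with LIF at 1000 units per ml and passaged as single cells with trypsin. Library mEpiSC 1 came from the line EpiSC5, mEpiSC 2 and mEpiSC 3 from EpiSC7 and mEpiSC 4 from EpiSC9, all grown with FGF2 at 10 ng per ml and passaged as clumps with collagenase. All lines shared a serum replacement medium, gelatin-coated dishes and a feeder layer of irradiated mouse embryonic fibroblasts, from which the cells were separated before RNA extraction. No library of feeder cells alone was analysed here, so a feeder origin of any transcript was not measured. Whether libraries of the same line are separate cultures is not stated, and p-values therefore cover the spread between these libraries only, which may be technical.

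Collagens are built from alpha chains that wind into trimers; most are secreted and some stay in the cell membrane. Types I, III and V form the fibrils of connective tissue and are made in bulk by fibroblasts, type VI forms beaded microfilaments around cells, and types IV and XVIII belong to basement membranes, the sheets on which epithelia, including the epiblast, rest. Fibronectin, the small proteoglycans decorin, lumican and biglycan, and enzymes such as lysyl oxidase organise, space and cross-link these fibrils.

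Levels are FPKM as deposited, that is fragments divided by the transcript's length in kilobases and scaled to the library's mapped fragments. The deposited intervals imply 24700000 to 38600000 fragments per library, and 10924 to 11506 of the listed genes were at 1 FPKM or more. Pou5f1, a core factor of pluripotent cells, measured 446 to 570 FPKM in mESC and 314 to 608 FPKM in mEpiSC, and the first principal component (63.2% of the variance over the tested genes) parted the states. The second (16.9%) separated mESC 4 (score 33.5) and mEpiSC 4 (48.9) from the other 6 libraries (−20.6 to −8.8). Results that rest on these replicate 4 libraries are given with and without them.

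Of the 56 genes, 32 reached 1 FPKM in at least 4 libraries and were tested, 19 collagens and all 13 others. Of these, 3 passed that filter through all 4 mEpiSC libraries and no mESC library, and 1 through all 4 mESC libraries alone, so a difference between states was built into their passing. Of the other 24, 17 stayed under 1 FPKM in every library and 7 reached it in 1 to 3 libraries.

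The summed level of matrix transcripts was higher in mEpiSC than in mESC in every same-numbered pair of libraries, and it varied widely within each state. The FPKM of all 56 genes summed to 656.5, 223.5, 269.8 and 121.7 in mESC 1 to 4 and to 1146, 635.5, 510.6 and 367.6 in mEpiSC 1 to 4. The states overlapped, because mESC 1 held more than 3 of the 4 mEpiSC libraries. The make-up also changed with the library. Col1a1, Col1a2 and Col3a1 took 31.1%, 10.8%, 13.7% and 1.5% of the sum in mESC 1 to 4 and 32.6%, 31.8%, 23.9% and 8.4% in mEpiSC 1 to 4. Fn1, Sparc and Col18a1 took 37.1%, 67.0%, 66.1% and 80.3% in mESC and 22.7%, 25.6%, 32.0% and 53.2% in mEpiSC. In libraries with little fibrillar collagen the matrix transcripts thus consisted mainly of fibronectin, osteonectin and type XVIII collagen. In bulk RNA, fewer cells of a type and less RNA per cell cannot be told apart.

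**Figure D1:**
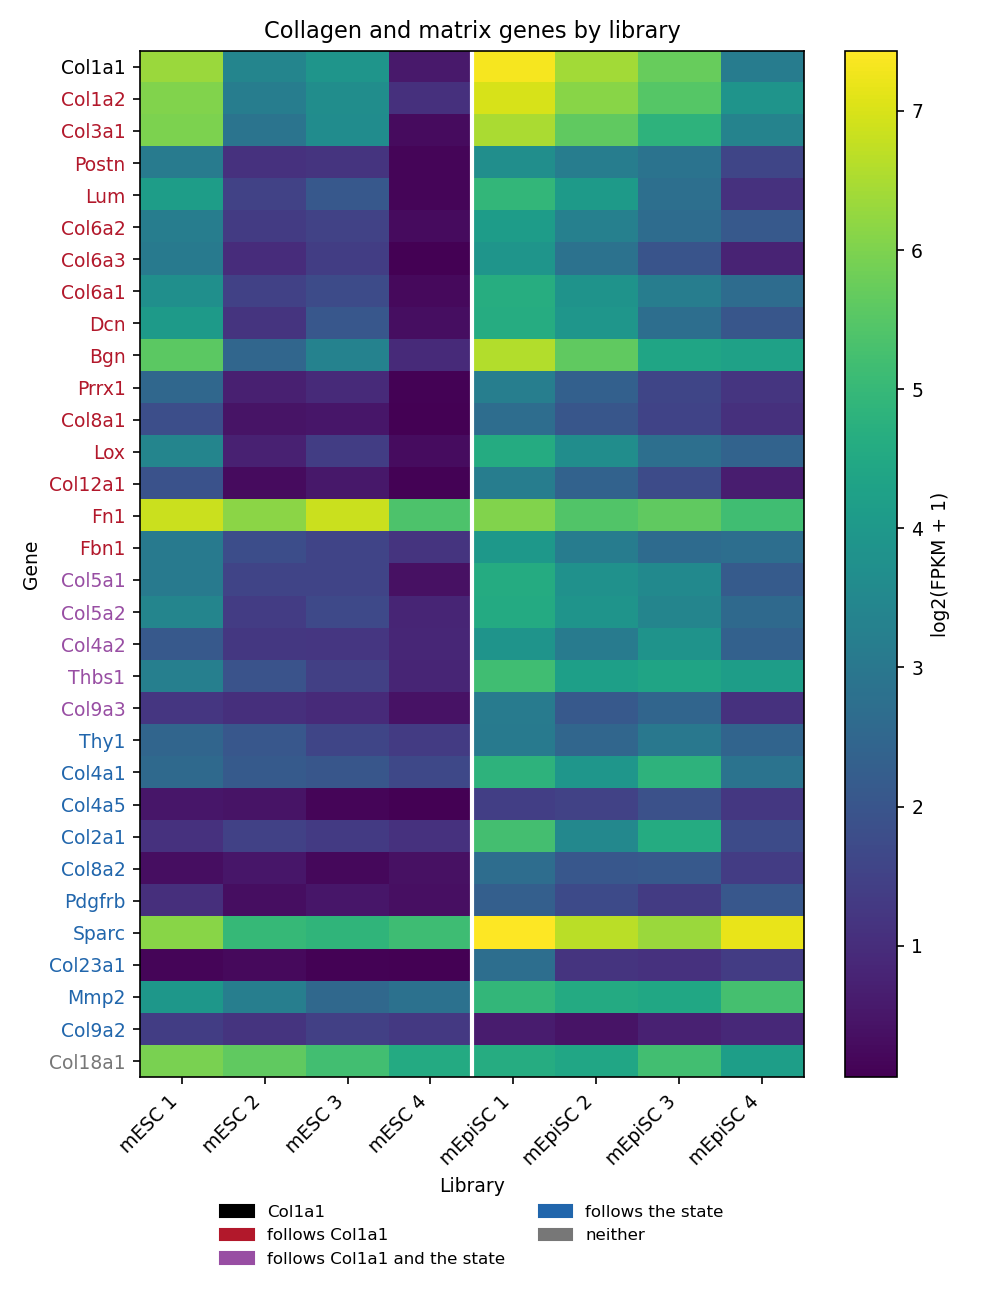
Level of the 32 tested genes (rows) in the 8 libraries (columns) as log2(FPKM + 1), with brighter colours for higher levels; gene names are coloured by the pattern defined in the text, and the white line parts mESC from mEpiSC. The upper rows are brightest in mESC 1 and in mEpiSC 1 to 3 and darkest in mESC 4, whereas Sparc, Mmp2, Col4a1 and Col2a1 are brighter in each mEpiSC library than in all mESC libraries.

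To part genes that follow Col1a1 from genes that follow the state, 2 descriptive measures were taken per gene on log2(FPKM + 1). The first is the within-state r, the Pearson correlation with Col1a1 of the deviations from the 2 state means over the 8 libraries. The second is the share of the gene's variance that lies between the 2 state means. A gene was said to follow Col1a1 at a within-state r of at least 0.8 and to follow the state at a share of at least 0.5. Because the classes were made from the values, no class was tested, and the 8 libraries are not independent, since they come from 5 lines.

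By these measures 20 of the 31 tested genes other than Col1a1 followed it, with within-state r of 0.81 to 0.99. Of these, 15 followed Col1a1 alone (Col1a2, Col3a1, Col6a1, Col6a2, Col6a3, Col8a1, Col12a1, Bgn, Dcn, Fbn1, Fn1, Lox, Lum, Postn and Prrx1), and 5 met both bounds (Col4a2, Col5a1, Col5a2, Col9a3 and Thbs1). Another 10 followed the state without Col1a1, namely Col2a1, Col4a1, Col4a5, Col8a2, Col9a2, Col23a1, Mmp2, Pdgfrb, Sparc and Thy1. Of these, Col4a5, Col8a2 and Col23a1 passed the filter through the mEpiSC libraries alone and Col9a2 through the mESC libraries alone. A difference between states was thus built into their passing, and their share is no support for one. Col18a1 met neither bound, at a within-state r of 0.745 and a share of 0.396. Nearest the bounds were Thy1 (within-state r 0.795) and Col9a3 (0.809), and Fbn1 (share 0.478) and Col5a1 (0.515). The 20 followers were all highest in mESC 1 and in mEpiSC 1 within their state. All 20 were lowest in mESC 4 among mESC, and 19 were lowest in mEpiSC 4 among mEpiSC. For comparison, 601 of the other 11524 tested genes (5.22%) had a within-state r of at least 0.8; their median was −0.18, against 0.88 for the collagen and matrix genes.

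Without both replicate 4 libraries the pattern held for the fibrillar genes and changed for others. Col1a2, Col3a1 and Col6a1 kept within-state r values that rounded to 1.00 over the 6 libraries. Fn1 (0.64), Col4a2 (0.70) and Col9a3 (0.52) then followed only the state. Sparc (0.95), Pdgfrb (0.91) and Mmp2 (0.82) then met the bound for Col1a1 as well, having been at 0.388, 0.416 and 0.306 with all 8 libraries. None of these genes was lowest in a replicate 4 library, where Col1a1 was lowest in both states.

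**Figure D2:**
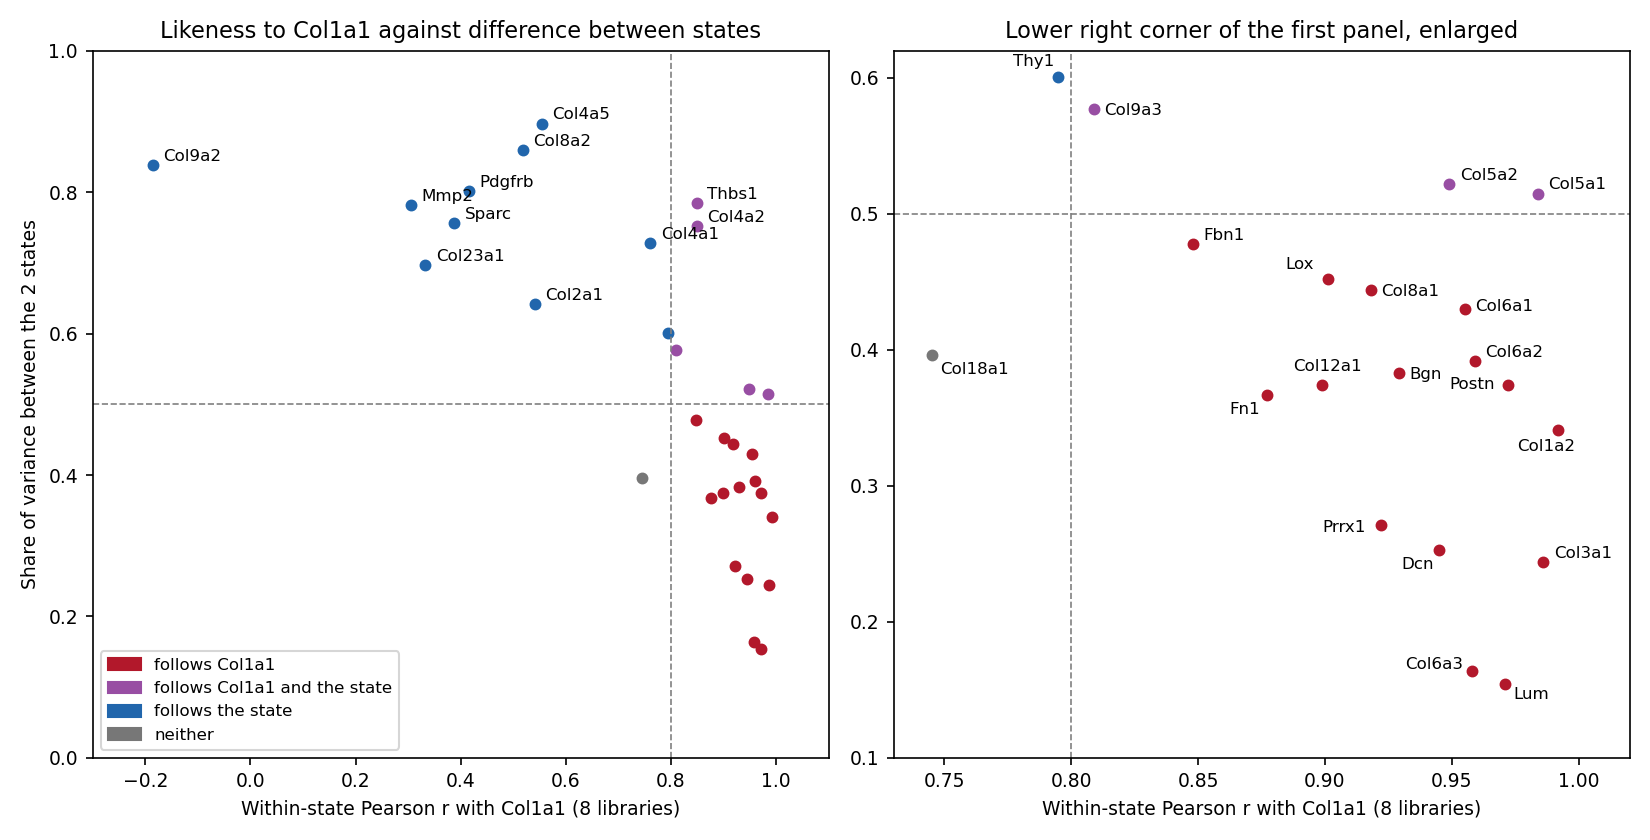
Within-state Pearson r with Col1a1 (horizontal) against the share of variance between the 2 states (vertical) for the 31 tested genes other than Col1a1, on log2(FPKM + 1) over 8 libraries; dashed lines mark the bounds of 0.8 and 0.5, colours the patterns, and the second panel enlarges the lower right corner, whose genes are named there. Most genes lie right of 0.8, the state genes Col4a5 and Col8a2 lie highest and Col9a2 alone lies below 0 on the horizontal axis. These named genes passed the filter through mEpiSC (Col4a5, Col8a2) or mESC (Col9a2) libraries alone, so a difference between states was built in.

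The 250 bases upstream of the annotated start are shown for 2 collagen genes that follow Col1a1 (Col1a2, Col3a1) and 2 that follow the state (Col8a2, Col23a1), to set side by side the promoters of genes that moved differently over the same libraries. Col8a2 and Col23a1 passed the filter through the mEpiSC libraries alone, so a difference between states was built into their passing. They come from RefSeq on GRCm38.p6, in which 40 of the 56 genes were matched. Capitals mark exact matches, on either strand, to TATAAA, to CCAAT or to the GC box, spelled GGGCGG.
Col1a2, chr6:4505368-4505617, + strand: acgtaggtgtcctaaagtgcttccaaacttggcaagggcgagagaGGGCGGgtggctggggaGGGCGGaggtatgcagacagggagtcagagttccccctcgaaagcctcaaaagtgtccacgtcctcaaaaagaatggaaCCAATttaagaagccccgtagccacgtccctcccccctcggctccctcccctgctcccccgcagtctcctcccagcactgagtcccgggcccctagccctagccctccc
Col3a1, chr1:45311288-45311537, + strand: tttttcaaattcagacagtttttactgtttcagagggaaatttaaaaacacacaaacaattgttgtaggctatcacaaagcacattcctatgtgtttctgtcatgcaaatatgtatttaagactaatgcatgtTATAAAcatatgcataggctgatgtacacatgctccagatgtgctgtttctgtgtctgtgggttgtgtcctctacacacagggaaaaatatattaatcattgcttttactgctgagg
Col8a2, chr4:126286544-126286793, + strand: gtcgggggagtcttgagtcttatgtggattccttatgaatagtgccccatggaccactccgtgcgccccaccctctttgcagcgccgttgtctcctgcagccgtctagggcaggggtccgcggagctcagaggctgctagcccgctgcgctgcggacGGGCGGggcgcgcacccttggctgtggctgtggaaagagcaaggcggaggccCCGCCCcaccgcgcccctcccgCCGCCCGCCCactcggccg
Col23a1, chr11:51289670-51289919, + strand: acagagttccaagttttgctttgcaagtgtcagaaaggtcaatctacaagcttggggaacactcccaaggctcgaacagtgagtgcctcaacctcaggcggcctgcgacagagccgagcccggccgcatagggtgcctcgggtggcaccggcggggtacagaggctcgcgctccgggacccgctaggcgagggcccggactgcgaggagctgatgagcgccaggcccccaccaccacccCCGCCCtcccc
The Col1a2 stretch holds 1 CCAAT and 2 GC boxes at 62.0% GC, and that of Col3a1 holds 1 TATAAA and no GC box at 35.2% GC. Those of Col8a2 (4 GC boxes, of which the last 2 overlap, 70.0% GC) and Col23a1 (1 GC box, 66.0% GC) hold neither TATAAA nor CCAAT. Col1a2 and Col3a1, which both follow Col1a1, share none of these matches in this window. Of the 44 listed promoters of the 40 matched genes, 6 held TATAAA, 13 CCAAT and 24 the GC box, against 12.4%, 33.8% and 32.7% of 32851 promoters of the same length. A match is a description of letters and not a site in use.

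Col1a1 and Col1a2 encode the chains of type I collagen, the main fibrillar collagen. Col1a1 (chromosome 11, 94797584 to 94813170 on mm9) measured 78.4, 9.71, 13.9 and 0.481 FPKM in mESC 1 to 4 and 159, 84.5, 51.5 and 7.92 FPKM in mEpiSC 1 to 4. Libraries of the same line lay far apart, both for ESF122 (mESC 1 and 2) and for ESF175/1 (mESC 3 and 4), and mEpiSC 4 lay below 3 of the 4 mESC libraries. The gaps exceeded counting error: the deposited 95% interval in mESC 4 was 0.370 to 0.592 FPKM from about 75 fragments, against 77.0 to 79.7 FPKM from about 14132 fragments in mESC 1. The means were 25.6 ± 35.6 FPKM in mESC and 75.7 ± 63.8 FPKM in mEpiSC (SD, n = 4 each). Fold changes are differences of mean log2(FPKM + 1), mEpiSC minus mESC, a scale that compresses changes at low levels. That of Col1a1 was 2.10 (SE 1.21) and did not pass the limma test (Benjamini-Hochberg adjusted p = 0.20). In the fit with a replicate block, in which each mEpiSC library is set against the mESC library of the same number, it did (adjusted p = 0.0048). Without both replicate 4 libraries the adjusted p was 0.079.

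Col1a2 (chromosome 6, 4455697 to 4491543) measured 64.1, 7.99, 11.7 and 1.09 FPKM in mESC and 125, 68.6, 43.5 and 13.7 FPKM in mEpiSC. Col3a1 (chromosome 1, 45368383 to 45406551), the homotrimeric type III collagen of soft tissue, measured 61.9, 6.48, 11.4 and 0.213 FPKM in mESC and 89.7, 48.7, 27.1 and 9.26 FPKM in mEpiSC. Both ranked the libraries of each state as Col1a1 did, and neither passed the test (adjusted p = 0.12 and 0.21; 0.0055 and 0.018 with the replicate block). The type V chains, which nucleate and limit the width of type I fibrils, had a larger share of variance between states. Col5a1 measured 7.45, 1.98, 1.94 and 0.313 FPKM against 23.3, 12.8, 10.8 and 3.55 FPKM, and was higher in mEpiSC (log2 1.88, SE 0.62; limma adjusted p = 0.039). Col5a2, which lies beside Col3a1 on chromosome 1, measured 9.59, 1.59, 2.21 and 0.759 FPKM against 22.7, 13.7, 9.59 and 4.94 FPKM (log2 1.79, SE 0.58; adjusted p = 0.038). For both type V genes the ranges of the states overlapped, because mESC 1 lay above mEpiSC 4.

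**Figure D3:**
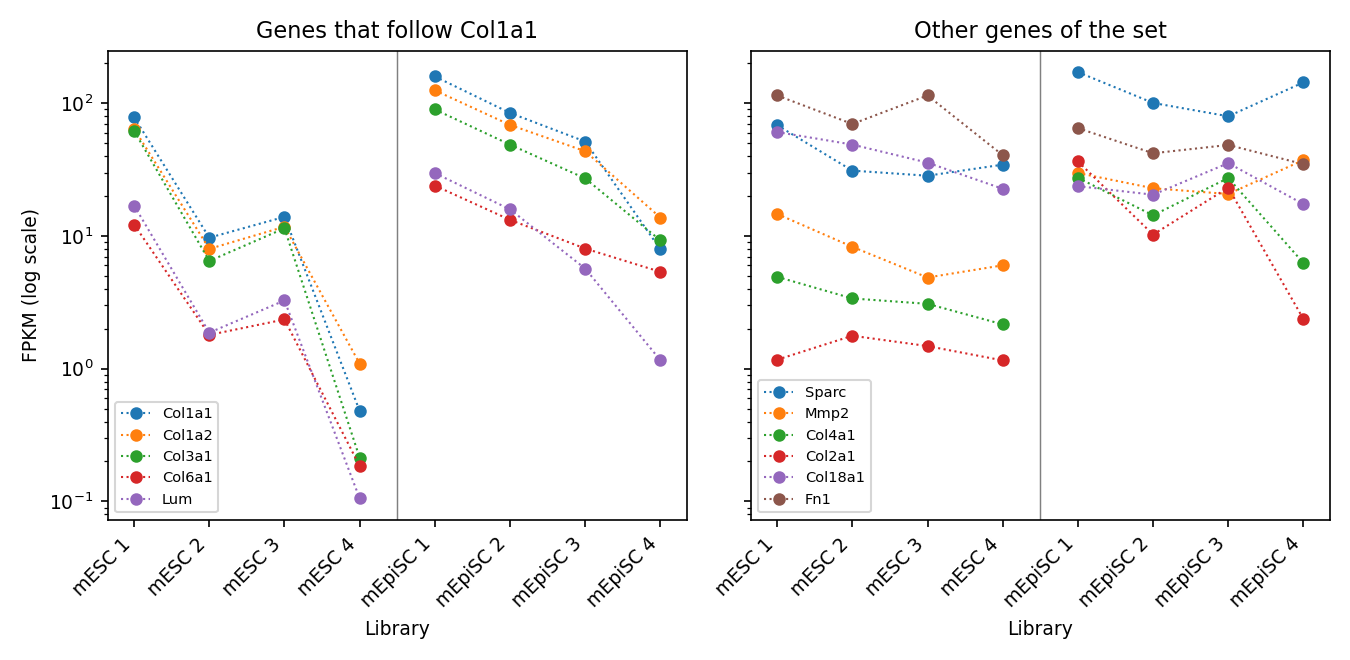
FPKM on a log axis in each library for 5 genes that follow Col1a1 (first panel) and 6 others (second panel); points are single libraries, dotted lines only join the points of a gene, and the vertical line parts mESC from mEpiSC. Col1a1, Col1a2 and Col3a1 fall from 61.9 to 78.4 FPKM in mESC 1 to 0.213 to 1.09 FPKM in mESC 4, whereas Sparc and Mmp2 are not lowest in either replicate 4 library.

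The type VI chains moved with type I. Col6a1 measured 12.2, 1.80, 2.35 and 0.185 FPKM in mESC and 23.9, 13.2, 8.04 and 5.37 FPKM in mEpiSC, and its neighbour Col6a2 measured 8.11, 1.55, 1.86 and 0.218 against 16.6, 8.63, 5.31 and 3.32 FPKM. Col6a3, the large chain encoded on chromosome 1, measured 7.54, 0.989, 1.62 and 0.0390 against 14.0, 6.07, 2.94 and 0.732 FPKM. None of these chains passed the test (adjusted p = 0.070, 0.091 and 0.33), and each had its highest mESC value above its lowest mEpiSC value. Col12a1, which binds the surface of type I fibrils, measured 2.79, 0.213, 0.452 and 0.0676 FPKM in mESC and 8.06, 4.16, 2.32 and 0.580 FPKM in mEpiSC (adjusted p = 0.10; log2 1.51 and just past the threshold without both replicate 4 libraries). Col8a1, a short-chain network collagen, measured 2.53, 0.359, 0.420 and 0.0533 FPKM against 5.44, 3.10, 1.93 and 1.10 FPKM (adjusted p = 0.069). In both, mESC 1 stood well above the other mESC libraries.

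The small leucine-rich proteoglycans, which coat collagen fibrils, repeated this order of libraries. Bgn, biglycan, measured 46.5, 4.67, 8.94 and 0.921 FPKM in mESC and 94.6, 48.3, 20.0 and 18.5 FPKM in mEpiSC. Dcn, decorin, measured 15.8, 1.26, 3.13 and 0.268 against 23.8, 14.2, 5.63 and 3.04 FPKM, and Lum, lumican, 17.0, 1.87, 3.27 and 0.105 against 29.8, 15.9, 5.68 and 1.16 FPKM. The lowest of these, Lum in mESC 4, rested on about 8 fragments, with a deposited interval of 0.0308 to 0.180 FPKM. None of the proteoglycans passed the test (adjusted p = 0.093, 0.20 and 0.35), although mEpiSC exceeded mESC in every same-numbered pair. Lox, the lysyl oxidase that starts collagen cross-linking, ran from 0.243 to 9.71 FPKM in mESC and from 4.28 to 23.2 FPKM in mEpiSC. Postn, periostin, a matricellular partner of collagen, ran from 0.111 to 7.70 and from 2.03 to 11.9 FPKM, and Fbn1, the microfibril protein fibrillin-1, from 1.26 to 7.59 and from 5.24 to 14.8 FPKM. Prrx1, a homeobox factor of limb and other mesenchyme, ran from 0.0809 to 4.78 and from 1.28 to 8.27 FPKM. Each was highest in replicate 1 of both states, and each had overlapping states (adjusted p = 0.061, 0.10, 0.054 and 0.19).

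The basement membrane chains of type IV were among the genes that parted the states without overlap. Col4a1 (chromosome 8, 11198423 to 11312826) measured 4.92, 3.38, 3.08 and 2.16 FPKM in mESC and 27.4, 14.3, 27.3 and 6.26 FPKM in mEpiSC (log2 2.02, SE 0.42; limma adjusted p = 0.0060). Its head-to-head neighbour Col4a2 measured 3.35, 1.38, 1.33 and 0.809 against 13.6, 7.66, 13.4 and 4.04 FPKM (log2 1.93, SE 0.38; adjusted p = 0.0048). Both were as high in mEpiSC 3 as in mEpiSC 1, while Col1a1 was at 51.5 and 159 FPKM there. Exons of the pair overlap on opposite strands in the annotation, and the use of strand is not stated, so some reads of 1 gene may be counted for the other. Col4a5, an alpha chain of other type IV networks, measured 0.410, 0.365, 0.118 and 0.0490 FPKM in mESC and 1.67, 1.86, 2.68 and 1.39 FPKM in mEpiSC, with a between-state share of 0.897 (adjusted p = 0.0011). It passed the filter through the mEpiSC libraries alone, so its mEpiSC values had to lie above its mESC values. Its X-chromosome neighbour Col4a6 measured 0.0518, 0.195, 0.0342 and 0.0109 against 0.486, 0.849, 1.27 and 0.836 FPKM and was not among the tested genes, since it reached 1 FPKM in mEpiSC 3 alone. Col18a1 (chromosome 10, 76514924 to 76629275), the collagen from which endostatin is cleaved, went the other way at a much higher level. It measured 60.7, 48.8, 35.7 and 22.7 FPKM in mESC and 23.7, 20.5, 35.4 and 17.4 FPKM in mEpiSC, and did not pass the test (log2 −0.73, SE 0.31; adjusted p = 0.096; 0.050 with the replicate block). Without both replicate 4 libraries it did (log2 −0.85; adjusted p = 0.031).

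Collagens best known from cartilage split by chain. Col2a1, the type II fibrillar chain, measured 1.17, 1.77, 1.48 and 1.15 FPKM in mESC and 36.4, 10.2, 23.1 and 2.37 FPKM in mEpiSC (log2 2.51, SE 0.63; limma adjusted p = 0.014). The mESC libraries lay close together, and the mEpiSC libraries spread over a wide range, with EpiSC9 near the mESC level. Col9a3, a chain of the type IX collagen that decorates type II fibrils, measured 1.33, 1.07, 0.898 and 0.336 against 7.72, 3.31, 4.50 and 1.16 FPKM (adjusted p = 0.027). Col9a2, the partner chain, was the only one of the 32 tested genes called lower in mEpiSC in the fit with the state alone, at 1.65, 1.26, 1.75 and 1.41 FPKM in mESC against 0.525, 0.352, 0.672 and 0.865 FPKM (log2 −0.66, SE 0.15; adjusted p = 0.0083). The ratio of Col9a3 to Col9a2 was therefore 0.807, 0.847, 0.512 and 0.239 in mESC and 14.7, 9.41, 6.70 and 1.35 in mEpiSC, without overlap. Exons of Col9a3 overlap those of Tcfl5 on the opposite strand, and the use of strand is not stated, so some reads may be counted for the wrong gene.

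Col8a2, a corneal and vascular network chain, and Col23a1, a transmembrane collagen, were under 0.5 FPKM in every mESC library. Col8a2 measured 0.267, 0.407, 0.156 and 0.316 FPKM in mESC and 5.51, 3.15, 3.29 and 1.58 FPKM in mEpiSC (log2 1.70, SE 0.25; limma adjusted p = 0.0013). Its paralog Col8a1 followed Col1a1 instead, with mESC 1 at 2.53 FPKM. Col23a1 measured 0.105, 0.175, 0.0783 and 0.0587 against 5.64, 1.22, 1.14 and 1.55 FPKM (log2 1.44, SE 0.33; adjusted p = 0.0095), highest in EpiSC5. Col4a5, Col8a2 and Col23a1 are the 3 genes that passed the filter through the mEpiSC libraries alone. Col9a2 is the 1 that passed through the mESC libraries alone. A difference between states was thus built into their passing, and the adjusted p-values of these genes are no support for one.

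Among the other matrix genes, Sparc and Mmp2 parted from Col1a1 most visibly in the replicate 4 libraries. Sparc, or osteonectin, a collagen-binding glycoprotein (chromosome 11, 55208003 to 55233582), measured 68.3, 31.1, 28.4 and 34.5 FPKM in mESC and 172, 100.5, 79.7 and 144 FPKM in mEpiSC (log2 1.62, SE 0.32; limma adjusted p = 0.0045). In mEpiSC 4 it was second only to mEpiSC 1, while Col1a1 was lowest there. Mmp2, the gelatinase that degrades type IV and denatured collagen, measured 14.7, 8.28, 4.86 and 6.01 against 29.8, 22.9, 20.7 and 37.3 FPKM (log2 1.67, SE 0.31; adjusted p = 0.0033), with its highest value in mEpiSC 4. Pdgfrb, the PDGF receptor of mesenchymal and mural cells, measured 1.06, 0.260, 0.408 and 0.287 against 3.86, 2.25, 1.55 and 3.20 FPKM (adjusted p = 0.0036). Thbs1, thrombospondin-1, an adhesive glycoprotein that activates latent TGF-beta, measured 8.38, 2.85, 1.71 and 0.771 against 35.2, 17.8, 19.8 and 16.9 FPKM (log2 2.63, SE 0.47; adjusted p = 0.0028). Its fold change on this scale was the largest of the 32 with all libraries, whereas without both replicate 4 libraries Col2a1 was at log2 3.14 and Thbs1 at 2.39. None of these genes had a mESC library above a mEpiSC library. Thy1, a surface glycoprotein of fibroblasts and of several other cell types, measured 4.47, 3.14, 2.04 and 1.53 against 7.35, 4.60, 7.04 and 4.44 FPKM (adjusted p = 0.028), and mESC 1 lay just above mEpiSC 4.

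Fn1, fibronectin (chromosome 1, 71632097 to 71699745), the glycoprotein on which cells assemble collagen fibrils, was the most abundant of the 56 in mESC by mean FPKM. It measured 114, 69.8, 114 and 40.6 FPKM in mESC and 65.0, 42.0, 48.5 and 34.8 FPKM in mEpiSC (84.8 ± 36.2 and 47.5 ± 12.9, SD, n = 4 each). Its level was lower in mEpiSC in every same-numbered pair, while mESC 4 lay below 3 of the mEpiSC libraries. The test did not call it (log2 −0.74, SE 0.34; limma adjusted p = 0.11), whereas the replicate block (adjusted p = 0.014) and the fit without both replicate 4 libraries (log2 −0.92; adjusted p = 0.020) did. Its within-state r with Col1a1 of 0.877 fell to 0.64 without those libraries. In mEpiSC the order by mean FPKM began with Sparc (124 ± 41.5), Col1a1 (75.7 ± 63.8) and Col1a2 (62.7 ± 47.3), whose ranges overlap, so this order is not beyond their spread.

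Over the 32 tested genes, 15 passed the test between states, 14 higher and 1 lower in mEpiSC, or 46.9%, against 37.3% of all 11556 tested genes (23.1% higher and 14.2% lower). Of the 15, 4 had passed the filter in 1 state alone. The median log2 fold change was 1.45 against 0.083. The states did not overlap for 11 of the genes, 10 higher and 1 lower, against 37.1% of all genes (22.2% higher and 14.9% lower). For the 4 that had passed the filter in 1 state alone, the lack of overlap was built in. The direction was the same in all 4 same-numbered pairs for all 32, with 29 higher and Fn1, Col18a1 and Col9a2 lower, against 61.4% of all genes (36.1% higher and 25.3% lower). Under the replicate block 31 were called, 29 higher and 2 lower, against 45% of all genes (27.3% and 17.8%); the 16 added calls had adjusted p of 0.0031 to 0.027 and included Col1a1, Col1a2, Col3a1, all type VI chains, Bgn, Dcn and Lum. Same-numbered libraries are of different lines and no label says what a number marks. Over the tested genes, only replicate 4 stood apart in how alike same-numbered libraries were. With 1 mean per line, 5 were called (Col4a5, Thbs1, Mmp2, Pdgfrb and Sparc; adjusted p = 0.031 to 0.036), against 12.3% of all genes (7.49% higher and 4.82% lower). Of these 5, Col4a5 had passed the filter in 1 state alone. A random block for the line gave 11 calls, 10 higher and 1 lower, against 24.6% (15.5% and 9.05%). Leaving out mESC 1, the library with the highest Col1a1 among mESC, raised the count to 26, against 3386 of all 11556 genes. The calls of Col9a3, Thy1, Col5a1 and Col5a2 were lost in several fits without 1 library (adjusted p up to 0.072, 0.078, 0.095 and 0.092); the other 11 passed without any 1 library. The 4 that had passed the filter in 1 state alone were among these 11. They were also called in every other fit of this paragraph except that with 1 mean per line. Those calls are no support for a difference in these 4 genes. Without both replicate 4 libraries 18 were called, 15 higher and 3 lower, against 45.1% of all genes (26.4% and 18.7%). After median ratio scaling 12 were higher and 1 lower, against 38.9% of all genes (19.8% and 19%), and after quantile normalization 11 and 1, against 38% (18.9% and 19.1%), while the share of all calls that were higher in mEpiSC went from 61.9% to 51% and 49.8%.

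In a fit added after seeing the data, the log2 level of Col1a1 was a covariate, so that each state difference was measured at an equal Col1a1 level. The median log2 fold change of the other 31 genes was then 0.65 against 0.117 for all genes, and 12 were higher and 3 lower, against 38.8% of all genes called (25% and 13.8%). Among these calls, Col4a5, Col8a2 and Col23a1 (higher) and Col9a2 (lower) had passed the filter in 1 state alone, so a difference was built in. Col3a1, Lum, Dcn and Col6a3 were at log2 −0.01, −0.40, 0.08 and −0.25 (adjusted p = 0.97, 0.32, 0.87 and 0.52). None of these passed the test at equal Col1a1, which does not show that there is no difference. Sparc (1.41), Mmp2 (1.51), Thbs1 (1.95) and Col4a1 (1.47) stayed higher in mEpiSC (limma adjusted p = 0.0028 to 0.015). Fn1 was lower at log2 −1.24 (SE 0.21; adjusted p = 0.0033) and Col18a1 at log2 −1.12 (SE 0.26; adjusted p = 0.011). Col5a1 and Col5a2 stayed called at log2 0.84 each (adjusted p = 0.0078 and 0.028). This fit spends a degree of freedom on a gene whose own mean level was higher in mEpiSC, though without passing the test. The size of the adjusted differences depends on that overlap.

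**Figure D4:**
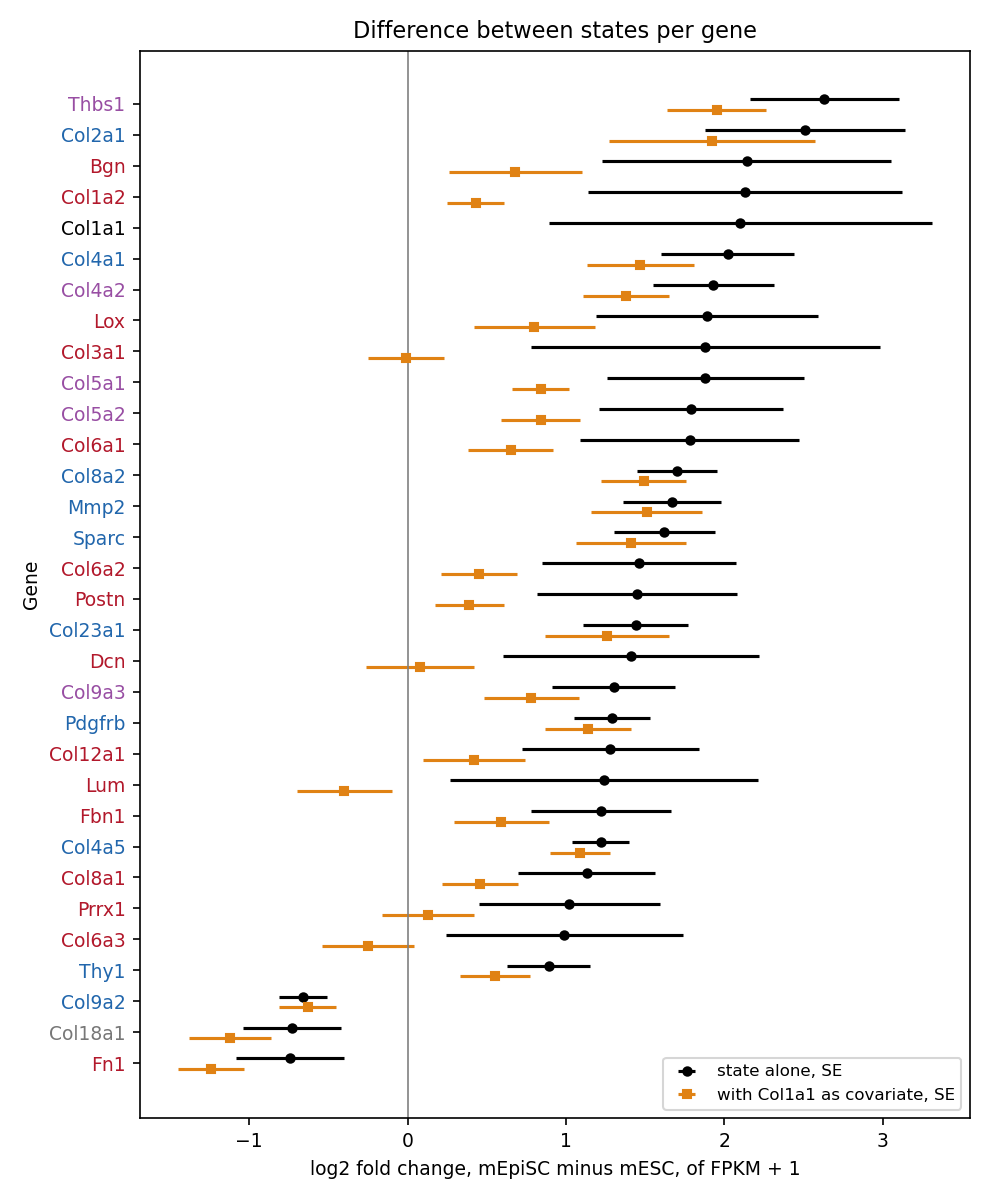
log2 fold change of FPKM + 1, mEpiSC minus mESC, with its standard error for each tested gene over 8 libraries, from limma with the state alone (black circles) and with Col1a1 as a covariate (orange squares); gene names are coloured by pattern. Thbs1 (2.63) and Col2a1 (2.51) head the list, Col1a1 (SE 1.21) and Col3a1 (SE 1.10) have the widest bars, Col3a1, Col6a3 and Lum move to or below 0 with the covariate, and Fn1, Col18a1 and Col9a2 lie below 0 in both.

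Ratios between partner genes show how closely the library differences are shared. The ratio of Col1a1 to Col1a2 was 1.22, 1.21 and 1.19 in mESC 1 to 3 and 1.27, 1.23 and 1.18 in mEpiSC 1 to 3, although the level of Col1a1 ran from 9.71 to 159 FPKM over these libraries. In mESC 4 and mEpiSC 4 the ratio was 0.441 and 0.576. Both replicate 4 libraries thus held less Col1a1 per Col1a2 than the other 6. The ratio of Lum to Dcn was 1.04 to 1.48 in mESC 1 to 3 and 1.01 to 1.25 in mEpiSC 1 to 3, and fell to 0.393 in mESC 4 and 0.380 in mEpiSC 4. Col6a3 to Col6a1 likewise stood at 0.550 to 0.688 and 0.366 to 0.587 in those libraries, and at 0.211 and 0.136 in replicate 4. In mESC 4 these ratios are imprecise, with about 8 fragments of Lum, 18 of Dcn, 14 of Col6a3 and 31 of Col6a1. Col4a1 to Col4a2, by contrast, was 1.47 to 2.67 in mESC and 1.55 to 2.04 in mEpiSC, with replicate 4 at opposite ends. Bgn to Dcn did not fall in replicate 4 either, at 3.44 in mESC 4 (2.86 to 3.70 in mESC 1 to 3) and 6.08 in mEpiSC 4 (3.41 to 3.98 in mEpiSC 1 to 3). Col6a1 to Col6a2 was lowest of mESC in mESC 4 (0.847) and highest of mEpiSC in mEpiSC 4 (1.62). The SD over the 8 libraries of the log2 ratio to Col1a1 was 0.40 for Col3a1, 0.48 for Lum and 0.56 for Col1a2, and 2.19 for Sparc, 2.49 for Fn1 and 3.08 for Col9a2. Its median over the genes was 1.56, and 0.49 without both replicate 4 libraries.

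**Figure D5:**
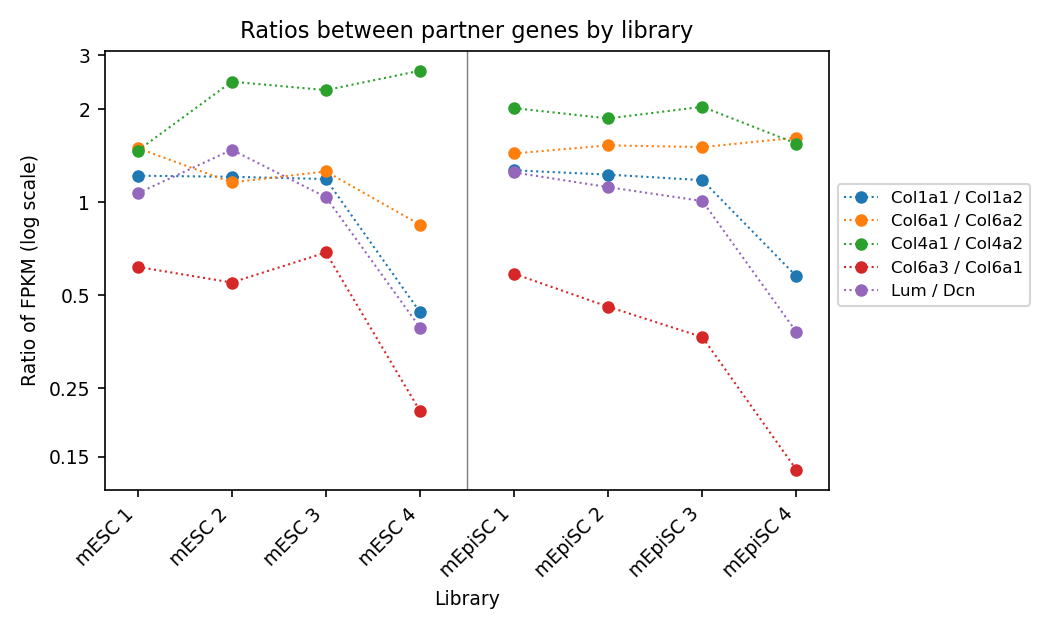
Ratio of FPKM between partner genes on a log axis in each library; points are single libraries, dotted lines only join the points of a pair, and the vertical line parts mESC from mEpiSC. Col1a1 to Col1a2 stays between 1.18 and 1.27 in 6 libraries and is 0.441 and 0.576 in the replicate 4 libraries.

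The replicate 4 libraries differed from the others in a way that went with transcript length. Deviations were taken from the mean of the other libraries of the state, over 10278 tested genes with a GENCODE transcript (88.9%). Their Pearson r with log2 length across genes, which do not count as replicates, was −0.37 in mESC 4 and −0.42 in mEpiSC 4. In the other libraries it was 0.10 to 0.30. Transcripts of up to 1818 bases lay at a median of 0.31 and 0.39 above that mean of the other libraries in mESC 4 and mEpiSC 4. Those of 5153 bases or more lay at −0.24 and −0.26. The collagen and matrix genes are long, with a median of 5385.5 bases against 3160 for the matched tested genes. Their median difference from the other libraries of the state was −1.14 in mESC 4 and −1.25 in mEpiSC 4 on the log2 scale, against 0.03 and 0.07 for all genes. Of the 32, 27 were lowest in mESC 4 and 26 in mEpiSC 4, against 32.2% and 31.2% of all genes. Among the 32 themselves length and deviation had r of 0.01 and −0.16. The part of transcript length in the result was not tested.

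Of the 24 genes below the filter, the 7 that reached 1 FPKM in 1 to 3 libraries were Col4a6, Col5a3, Col7a1, Col11a1, Col13a1, Col16a1 and Col22a1. Col7a1, the anchoring fibril collagen of skin, measured 0.449, 0.291, 0.179 and 0.0585 FPKM in mESC and 5.51, 2.12, 1.81 and 0.495 FPKM in mEpiSC. Col16a1, a collagen that associates with fibrils, ran from 0.0217 to 1.67 and from 0.365 to 2.94 FPKM and had a within-state r of 0.920 with Col1a1. Col13a1, a transmembrane collagen, was highest in mESC 4 at 1.02 FPKM and had a within-state r of −0.691. When all genes were tested without a filter, Col4a6 (log2 0.78, adjusted p = 0.0044) and Col7a1 (log2 1.30, adjusted p = 0.041) were called higher in mEpiSC. Col6a5 (log2 −0.59, adjusted p = 0.0022), Col6a4 (log2 −0.40, adjusted p = 0.025) and Col17a1 (log2 −0.19, adjusted p = 0.044) were called lower, against 28.2% of all genes called (16.9% higher and 11.3% lower). Col6a5, another type VI chain, stood at 0.450 to 0.845 FPKM in mESC and 0.0222 to 0.106 FPKM in mEpiSC, the reverse of Col6a1 to Col6a3. Col6a5 and Col6a6 share 3.48% and 3.71% of their transcripts' 50-base windows with other genes, the highest among the 56. The 17 genes under 1 FPKM in every library were Col4a3, Col4a4, Col6a4, Col6a5, Col6a6, Col9a1, Col10a1, Col11a2, Col14a1, Col15a1, Col17a1, Col19a1, Col20a1, Col24a1, Col25a1, Col27a1 and Col28a1.

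Genes that fold, modify and cross-link collagen were tested as a list of 38 names, of which 32 were listed and 23 passed the filter. Of these 13 were higher and 2 lower in mEpiSC, against 23.1% and 14.2% of all genes, with a median log2 fold change of 0.89 against 0.083. Of the 13, Leprel1 passed the filter through the mEpiSC libraries alone, so a difference between states was built into its passing. Serpinh1, the collagen chaperone HSP47, measured 56.6, 73.3, 29.3 and 85.2 FPKM in mESC and 259, 194, 176 and 304 FPKM in mEpiSC (log2 1.98, SE 0.32; limma adjusted p = 0.0019). It was highest in the replicate 4 library of each state, where Col1a1 was lowest. The prolyl isomerases Fkbp14 (1.32 ± 0.507 to 6.37 ± 2.57 FPKM, log2 1.63) and Fkbp10 (7.27 ± 1.81 to 21.0 ± 6.66 FPKM, log2 1.39) were higher too (adjusted p = 0.0016 and 0.0028; SD, n = 4 each). Pcolce2, an enhancer of procollagen cleavage, was lower at 7.85 ± 2.43 against 2.24 ± 0.542 FPKM (log2 −1.42; adjusted p = 0.0015), and Crtap, of the prolyl 3-hydroxylase complex, was the other lower call. With 1 mean per line 3 were higher and 1 lower, against 7.49% and 4.82% of all genes.

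Of 23 collagen receptors and turnover genes 14 were tested, and limma called 9 higher and none lower in mEpiSC (11 and 1 at an unadjusted p under 0.05), against 23.1% and 14.2% of all genes, with a median log2 fold change of 1.27. Timp3, an inhibitor of matrix metalloproteinases, measured 2.60, 1.68, 0.788 and 0.603 FPKM in mESC and 11.6, 7.64, 12.6 and 11.4 FPKM in mEpiSC (log2 2.34, SE 0.27; limma adjusted p = 4.3e-04). Ddr1, the collagen receptor kinase of epithelia, measured 5.96 ± 2.03 against 20.1 ± 3.05 FPKM (log2 1.63; adjusted p = 7.9e-04; SD, n = 4 each). Mmp16 (log2 1.11; adjusted p = 0.0012) and the collagen uptake receptor Mrc2 (log2 1.74; adjusted p = 0.0039) were higher as well. In none of these genes did the states overlap. Mmp16, and Timp4 among the 9 called higher, passed the filter through the mEpiSC libraries alone. A difference between states, and for Mmp16 the lack of overlap, was thus built in. With 1 mean per line 4 of the 14 were called higher and none lower, against 7.49% and 4.82% of all genes.

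Markers of other cells moved with the matrix genes in part. Of 19 fibroblast markers outside the set, 15 were tested, and limma called 10 higher and none lower in mEpiSC (10 and 0 at an unadjusted p under 0.05), against 23.1% of all genes higher and 14.2% lower. With a random block for the line, and with 1 mean per line, 6 were called higher, against 15.5% and 7.49% of all genes. Their FPKM summed to 98.4, 55.3, 30.4 and 32.3 in mESC and 287, 186, 147 and 277 in mEpiSC. The sum was highest in mESC 1 and mEpiSC 1, as for Col1a1, but mEpiSC 4 was nearly as high. Most of the mEpiSC 4 sum came from Tagln at 145 FPKM and Acta2 at 35.0 FPKM, beside 7.92 FPKM of Col1a1. Of the tested markers, Fbln1, Gas1, Prrx2 and Twist1 were also higher in mEpiSC 4 than in mEpiSC 1. The others, Ccl2, Cdh11, Cxcl12, Fbln2, Mfap4, Mfap5, Pdgfra, S100a4 and Tnc, were lower there. Of 13 markers of primitive and parietal endoderm, makers of type IV collagen in the embryo, 8 were tested. Gata6, Sox17 and Foxq1 passed the filter through the mEpiSC libraries alone, so a difference between states was built into their passing. With these included, 7 of the 8 were higher, against 23.1% of all genes. With a random block for the line 3 were called higher, against 15.5% of all genes, and with 1 mean per line limma called none of them (5 higher at an unadjusted p under 0.05), against 7.49%. Their sum was 17.5 to 24.6 FPKM in mESC and 217, 52.2, 58.4 and 50.8 FPKM in mEpiSC, with Gata6 at 26.4, 2.71, 4.41 and 1.71 FPKM in mEpiSC and Afp and Ttr at 0 to 0.134 FPKM in all libraries. The library mEpiSC 1, from EpiSC5, was also the highest of mEpiSC for most of the tested collagen and matrix genes. Col1a1, its 20 followers, Col2a1 and Col23a1 were among them. The exceptions were Col4a5, Col9a2, Col18a1 and Mmp2, and Col4a1 was equally high in mEpiSC 3. Pdgfra stands in both lists, and Fap also among the receptors and turnover genes. Of 6 endothelial markers 1 was tested, Pecam1, which was lower in mEpiSC (16.8 ± 4.90 in mESC and 1.12 ± 1.04 FPKM, SD, n = 4 each). Of the 5 others, all below the filter, Kdr (mean 0.0496 in mESC and 2.22 FPKM in mEpiSC), Cdh5 (0.0279 and 1.49), Tie1 (0.135 and 0.731) and Emcn (0.00778 and 0.302) had the higher mean in mEpiSC and Tek (1.34 and 0.595) in mESC. Of 7 trophoblast markers 4 were tested, of which 1 was higher and 1 lower, against 23.1% and 14.2% of all genes. The part of these cell types in the results was not tested.

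Outside the set, the genes most like Col1a1 were sought among 7548 tested genes with a mean of at least 5 FPKM, by the Pearson r of log2(FPKM + 1) over all 8 libraries. The highest were Mgp (0.963), the matrix Gla protein that restrains calcification, Lrp1 (0.961), an endocytic receptor, Thbs2 (0.955), a thrombospondin, Pkd2 (0.953), a cation channel, and Phf21a (0.940), a chromatin reader. Mgp measured 12.6, 1.29, 2.59 and 0 FPKM in mESC and 20.1, 8.96, 3.74 and 1.05 FPKM in mEpiSC, as wide a range as that of the fibrillar genes. Pkd2 measured 10.7, 8.03, 7.46 and 5.32 against 13.3, 9.82, 9.83 and 5.97 FPKM, a much narrower range, also highest in replicate 1 and lowest in replicate 4 of each state.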

How the data were processed

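Polyadenylated RNA of 8 libraries was prepared with a TruSeq kit, per the labels' protocols. The authors deposited 1 table per library with FPKM and 95% interval bounds; per the submitters' processing notes, TopHat2 2.0.6 and Cufflinks 2.0.2 were used on mm9. The sources used here do not give the annotation, the options or the use of strand. All columns of sample values were used.

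Symbols at several loci (248 symbols, 712 of 23699 entries) were dropped. FPKM are not counts, and only 78.4% to 80.6% of low values came out as whole fragments (tolerance 0.05, under 100 fragments), so no count test was run. Samples were grouped by the labels. States were compared by limma 3.58.1 in R 4.3.3 (with statmod 1.5.0, trended and robust variances) on log2(FPKM + 1). A gene was tested where 4 or more libraries reached 1 FPKM (11556 genes), and called at a Benjamini-Hochberg adjusted p under 0.05; the code was tested on simulated data. Ratios to Col1a1 used a pseudocount of 0.1. The members, lists, rules and alternatives were chosen with earlier results of these data known. Every member was accounted for. Of the processing and receptor lists up to 4 genes of lowest adjusted p were named, and 5 genes most like Col1a1; other genes were chosen after their values were seen.

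The states share replicate numbers. Deviations from the state means correlated across genes between same-numbered libraries at 0.22, 0.15, 0.18 and 0.51 (replicates 1 to 4). All exceed 0.1 and were read as pairing, which no label states. Differently numbered libraries exceeded 0.1 too: mESC 1 with mEpiSC 2 (0.12) and mESC 2 with mEpiSC 1 (0.11). Further, mESC 2 correlated more with mEpiSC 3 (0.19) and mESC 3 with mEpiSC 2 (0.21) than with their own number. A value above 0.1 therefore does not show pairing for replicates 1 to 3, and only replicate 4 stood apart. Other settings were pseudocounts of 0.1 and 5, no filter or a mean filter of 5 FPKM, 2 other scalings (median ratio, quantile), status OK throughout, no variance trend, a replicate block, a random block for the line, 1 mean per line, Col1a2 or Col3a1 as reference, other bounds, and each library left out. Leaving out both replicate 4 libraries and the Col1a1 covariate were added after seeing the data. Transcript lengths and shared sequence came from GENCODE vM21 and promoters from RefSeq (GRCm38.p6), used for no mm9 coordinate.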

Additional observations from a re-analysis of the deposited data

Results flagged for a closer look

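Within groups of 4 libraries, 13 of 86 sets of values examined had 1 library far from the others. This was judged by the gap to its nearest neighbour relative to the range (Dixon's test at the 95% level). For normally distributed values chance gives about 1 in 20, or 4.3. The values were FPKM and ratios without logs, whose skew can raise that rate, so 13 against 4.3 does not measure an excess. In mESC 1 the FPKM stood apart for Col12a1 (2.79, others at most 0.452), Col1a2 (64.1, others at most 11.7), Col5a2 (9.59, others at most 2.21), Col8a1 (2.53, others at most 0.420), Lox (9.71, others at most 1.64), Postn (7.70, others at most 1.24) and Sparc (68.3, others at most 34.5). In mEpiSC 1 it stood apart for Col23a1 (5.64, others at most 1.55) and Thbs1 (35.2, others at most 19.8). The remaining cases were ratios in the replicate 4 libraries. The ratio of Col1a1 to Col1a2 was 0.441 in mESC 4 and 0.576 in mEpiSC 4, below 1.18 to 1.27 elsewhere. Col3a1 to Col1a1 was 1.17 in mEpiSC 4 against 0.528 to 0.577 in the other mEpiSC libraries, and Col5a2 to Col3a1 was 3.56 in mESC 4 against 0.155 to 0.245 in the other mESC libraries. The genes share their libraries, so these cases are not independent of each other.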

How the results depend on the processing

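The 15 calls among the 32 tested genes became 31 with the replicate block, 5 with 1 mean per line, 8 of 20 genes with a mean of at least 5 FPKM, and 11 to 26 when each library was left out in turn. The block moved the adjusted p of Col1a1 to 0.0048 at the same log2 fold change of 2.10 (1.11 to 3.02 with 1 library left out). Calls over all genes, 4305, were 1422 with 1 mean per line, 2842 with a random block for the line (correlation 0.47), 2752 with a mean of at least 5 FPKM and 3132 to 4789 with 1 library left out; those among collagen processing genes, 15, were 4, 9 with the mean filter, and 12 to 15. The median spread of the ratio to Col1a1, 1.56, was 1.09 with Col1a2 as reference, 0.49 without both replicate 4 libraries and 1.05 to 1.69 with 1 library left out. The counts of 20 genes that follow Col1a1 and 10 that follow the state ran from 14 to 23 and from 7 to 13. With Col1a1 as a covariate Col3a1 (−0.01), Col6a3 (−0.25) and Lum (−0.40) changed sign, none of them called. Over 596 values of single genes under the planned settings, 521 stayed on their side of the threshold, 42 lost the call, 33 gained it and 0 changed sign; 5 genes stayed on their side throughout. Causes were not tested. With 4 libraries of 2 or 3 lines per state, and as few as 8 fragments behind a value, low levels in mESC 4 are imprecise.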
